A study of Mus musculus with 137 samples.

Results

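The comparison described here is that of the duodenal villus of mice given 1.4 ppm Cr(VI) with the villus of their time-matched controls at day 8. It was chosen by group: the 5 villus libraries at 1.4 ppm (mice 206 to 210) and the 5 at 0 ppm (mice 46 to 50), 10 of the 137 libraries of the study, with every probe in the deposited table. All mice were female wild-type B6C3F1 mice that drank water with or without sodium dichromate dihydrate, the source of Cr(VI), for 7 days, and the controls drank water without added Cr(VI). Crypts and villi were scraped separately from sections of fixed, paraffin-embedded duodenum, so each library is a bulk sample of 1 mouse. RNA was measured by TempO-Seq, a targeted assay in which 2 detector oligonucleotides that anneal side by side on a transcript are ligated and counted by sequencing.

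The villus is the absorptive face of the small intestine. Its surface is covered by enterocytes that are born in the crypt, move up the villus, and are shed at its tip, while Paneth cells, which make antimicrobial peptides, stay at the crypt base. Cr(VI) is a chromate ion that enters cells through anion transporters and is reduced inside them.

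Of 26365 probes for 19020 genes that passed the count filter, 401 probes for 393 genes passed an adjusted p of 0.1 (edgeR quasi-likelihood test with Benjamini-Hochberg adjustment), which is 2.07% of the genes tested. Of these DEGs, 132 were higher and 262 lower at 1.4 ppm. A gene with probes called both ways counts on both sides. The higher calls were 33.5% of the DEGs with TMM scaling and 56% with the size factors of DESeq2 in the same fit (237 higher, 186 lower), so the excess of lower calls depended on the scaling. The median log2 fold change of all probes was -0.02 with TMM, and 3761 probes had an unadjusted p under 0.05.

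Called probes that were higher had a median log2 fold change of 1.71 and a median level of 20.8 CPM (counts relative to the effective library size). Those that were lower had a median of -1.27 and a median level of 49.6 CPM. In 122 of the 401 called probes the exposed and control libraries did not overlap, against 295 of all probes tested (1.12%). The plot of all probes shows that calls with large folds were of low level: in 13 called probes that were higher and 32 that were lower, every library of 1 group held 3 counts or fewer.

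**Figure D1:**
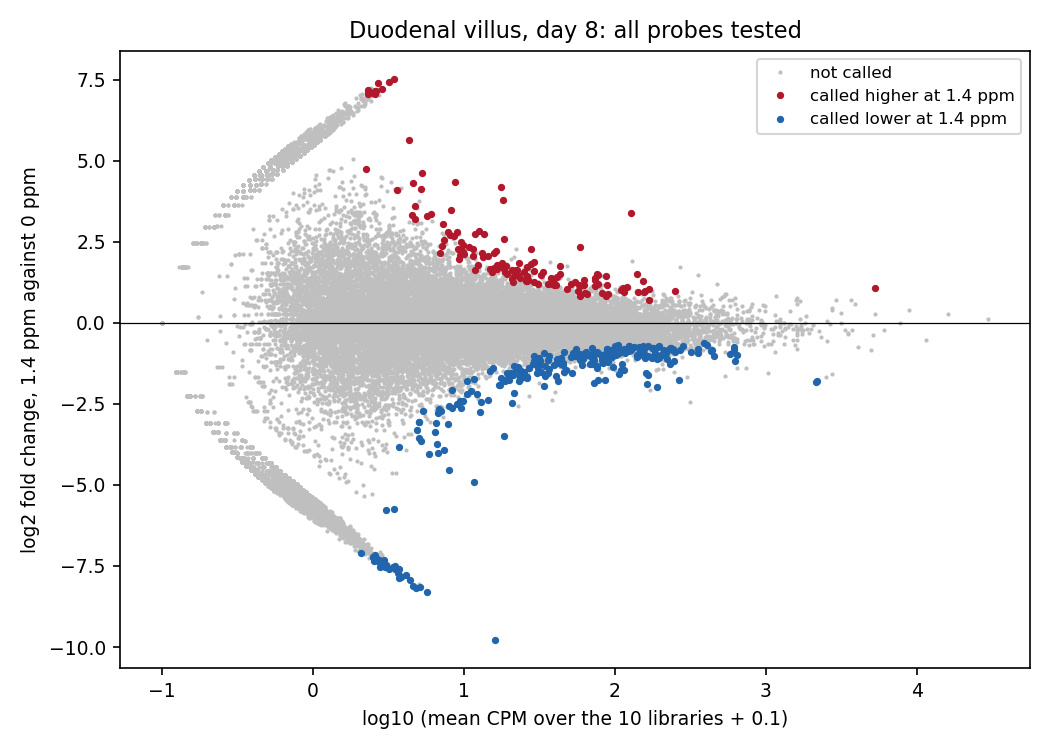
Log2 fold change at 1.4 ppm against 0 ppm (vertical axis) against the log10 of the mean CPM over the 10 libraries plus 0.1 (horizontal axis) for the 26365 probes tested. The 137 probes called higher are red, the 264 called lower are blue, and the others are gray.

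Total counts ran from 1856080 to 3019290 in the exposed libraries and from 2405384 to 4054136 in the controls (exact permutation p = 0.119, two-sided). Between 13103 and 16622 probes had at least 1 count in the exposed libraries and between 13832 and 20394 in the controls (exact permutation p = 0.365, two-sided). The median Spearman coefficients over probes, which are not independent, were 0.791 between groups, 0.798 within 1.4 ppm, and 0.782 within 0 ppm.

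The control library of mouse 48 stood apart from the other controls. Its summed CPM of crypt stem and progenitor markers was 1202, against 335 to 572 in the other controls and 219 to 462 in the exposed libraries. Its summed Paneth cell markers were 21588, against 2504 to 10143 in the other controls and 1438 to 5537 in the exposed libraries. Its enterocyte markers were the lowest of the 10 libraries (45187, against 61544 to 115208 in the rest), and its stromal markers were the highest (3274, against 941 to 1883). Without this library 110 genes were called, and 97 of the 401 probes remained called. With the sum of crypt and Paneth markers as a covariate 35 genes were called. The part that the makeup of the sections had in the results was not tested beyond these fits, and in bulk samples fewer cells of a type and less RNA per cell cannot be told apart.

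**Figure D2:**
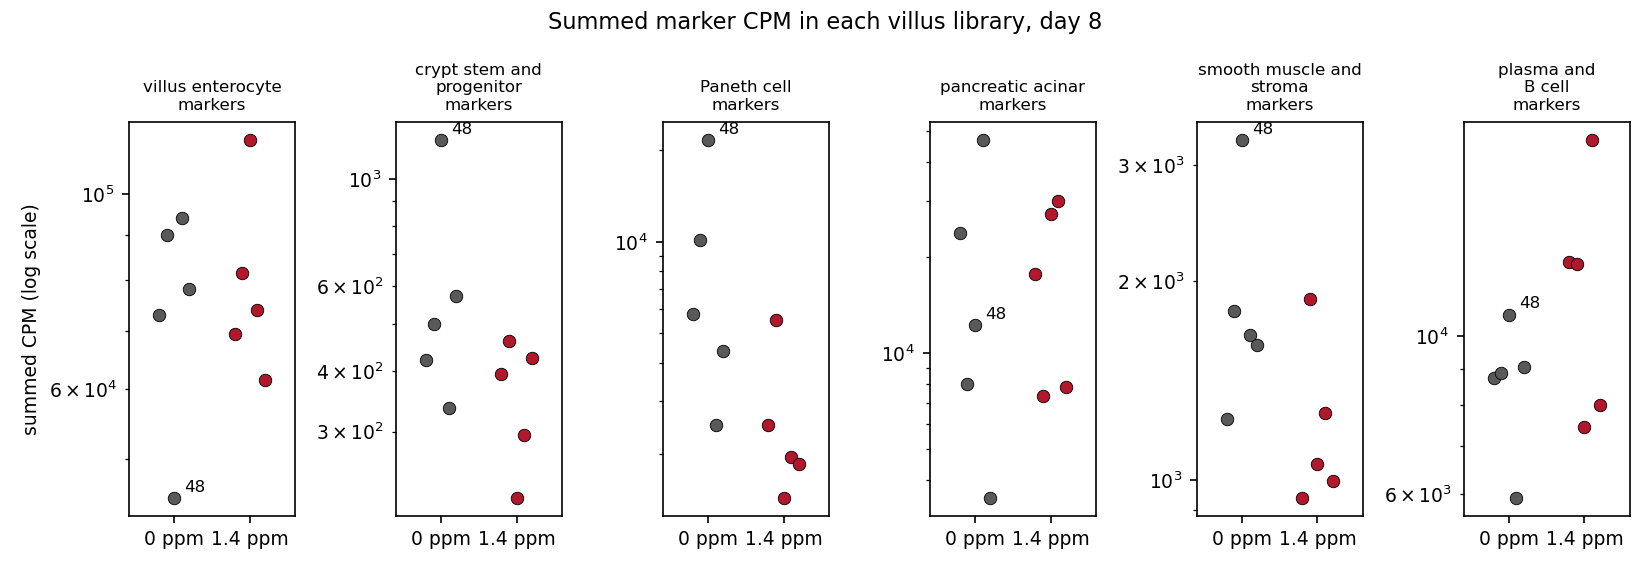
Summed CPM of marker genes in each of the 10 villus libraries, on log axes, with the controls in gray and the 1.4 ppm libraries in red; each point is 1 mouse. Mouse 48, labeled, is highest among all libraries in crypt, Paneth, and stromal markers and lowest in enterocyte markers.

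The libraries carried the markers of the villus. Vil1, which encodes the brush border protein villin, was at 7757 ± 1667 CPM (SD, n = 5) at 1.4 ppm and 7821 ± 1768 CPM (SD, n = 5) in controls, with a log2 difference of -0.01. Fabp2, the intestinal fatty acid binding protein, and Apoa4, an apolipoprotein of chylomicrons, had log2 differences of 0.14 ± 0.30 (SE) and 0.28 ± 0.42 (SE). None of the 20 enterocyte markers passed the test, and their median log2 difference was 0.31. Pancreatic acinar transcripts were present in every library, at summed CPM of 7366 to 30062 at 1.4 ppm and 3518 to 46698 in controls, and 0 of 19 tested acinar markers passed. With their sum as a covariate 439 genes were called.

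Leaving out 1 library at a time moved the count of DEGs from 58 to 1087. The count was lowest without mouse 209 (58), an exposed mouse, and highest without mouse 50 (1087), a control. The removal of mice 206, 208, 46, 47, and 48 left 157, 124, 178, 110, and 110 genes. Of the called probes, 24 passed in all 10 of these fits, and DESeq2 called those 24 as well. They are Paip2, Lrrc1, Per3, a gene with a RIKEN clone name, Ip6k2, Rnf125, Mrps17, Thoc7, Dbp (2 probes), Hnrnpul2, Tmem176b, Znfx1, Ptbp1, Wdr44, Stxbp2, Nipal2, Fat1, Nras, Chchd5, Jakmip1, Rras2, Psmd8, and Ift52. These fits and DESeq2 all included the other groups of the series, and DESeq2 called 381 of the 401 called probes. Fits of fewer libraries called 7 genes in all with the villus libraries of day 8 alone, and 25 with the 2 groups alone.

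**Figure D3:**
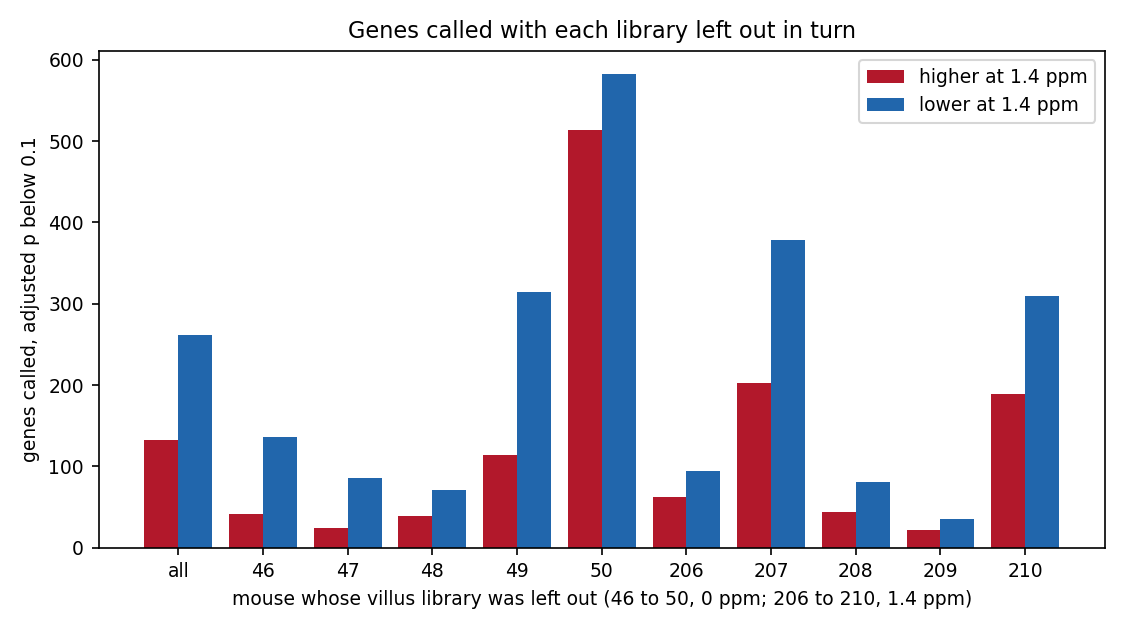
Genes called higher (red) and lower (blue) at 1.4 ppm with all 10 libraries and with the library of each mouse left out in turn. With all libraries 132 genes were higher and 262 lower, and the total fell to 58 without mouse 209 and reached 1087 without mouse 50.

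Of 18 clock genes tested, 2 were higher, Per3 and Dbp, and 0 were lower, and the median of the list was 0.10. Per3 is a period gene of the negative limb of the clock, and Dbp encodes a transcription factor of the clock's output that binds D-box elements. By the most counted probe of each gene, 0.437% of all genes were called higher and 1.2% lower, the background for this and every list below. Counts of called list members are by that probe as well, so a gene called by another probe alone is not among them.

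Per3 was at 37.7, 12.5, 5.29, 10.6, and 17.6 CPM in mice 206 to 210. It was at 0, 0, 1.62, 0, and 1.68 CPM in mice 46 to 50. All exposed libraries were above all controls, with a log2 fold change of 4.34 ± 0.81 (SE, adjusted p = 0.00243, and 0.00555 without mouse 48). The counts behind the control values are few, so the size of the fold is less certain than its direction.

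All 3 called probes of Dbp were higher. The most counted was at 76.0, 122, 143, 121, and 24.2 CPM in mice 206 to 210 and at 39.1, 11.1, 7.01, 23.8, and 18.7 CPM in mice 46 to 50. Only mouse 210 fell within the control range, and the log2 fold change was 2.34 ± 0.53 (SE, adjusted p = 0.0169, and 0.0749 without mouse 48). The other 2 probes had log2 fold changes of 3.79 (adjusted p = 0.00604) and 2.58 (adjusted p = 0.0519), and the probe at 3.79 did not overlap between groups.

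Other clock genes did not pass. Nr1d1, a repressor of the clock, had a log2 difference of 0.99 ± 0.41 (SE, adjusted p = 0.25). Nfil3, a factor that competes with Dbp for D-box elements, had a log2 difference of -1.27 ± 0.43 (SE, adjusted p = 0.135). Clock, of the positive limb, had one of -0.69 ± 0.30 (SE, adjusted p = 0.276).

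The promoters of these 2 genes were searched for the D-box (TTATGTAA, either strand), because Dbp binds it and both genes were higher in the same libraries. The Per3 promoter of RefSeq (250 bases before to 50 bases after the start) held 2 copies, and that of Dbp held 0. Of all 32851 promoters in the RefSeq set, 0.938% held at least 1 copy. The search was wider than this pair: it also took in Hspe1, Hsph1, Tsc22d3, Keap1, and Cbr1. Other motifs searched were the heat shock element, the E-box, and the glucocorticoid response element. The E-box was found in Hsph1 alone, and the glucocorticoid response element in none of these genes. Tsc22d3 (3 promoter entries), Keap1, and Cbr1 held no match to any motif searched. Whether Dbp acts on Per3 was not tested. The Per3 stretch runs from 220 to 136 bases before the start, at chr4:151044801-151044885 on the minus strand (GRCm38.p6), with the copies of the D-box in capitals.

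Per3: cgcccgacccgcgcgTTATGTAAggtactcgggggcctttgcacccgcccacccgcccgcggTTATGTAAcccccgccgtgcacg

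A match to these letters is a description of the sequence, not evidence of binding. The 2 copies lie close together, upstream of the gene, whose transcribed span in GENCODE M21 is chr4:151003652-151044665 on the minus strand. The Dbp gene lies at chr7:45705088-45710203 on the plus strand.

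**Figure D4:**
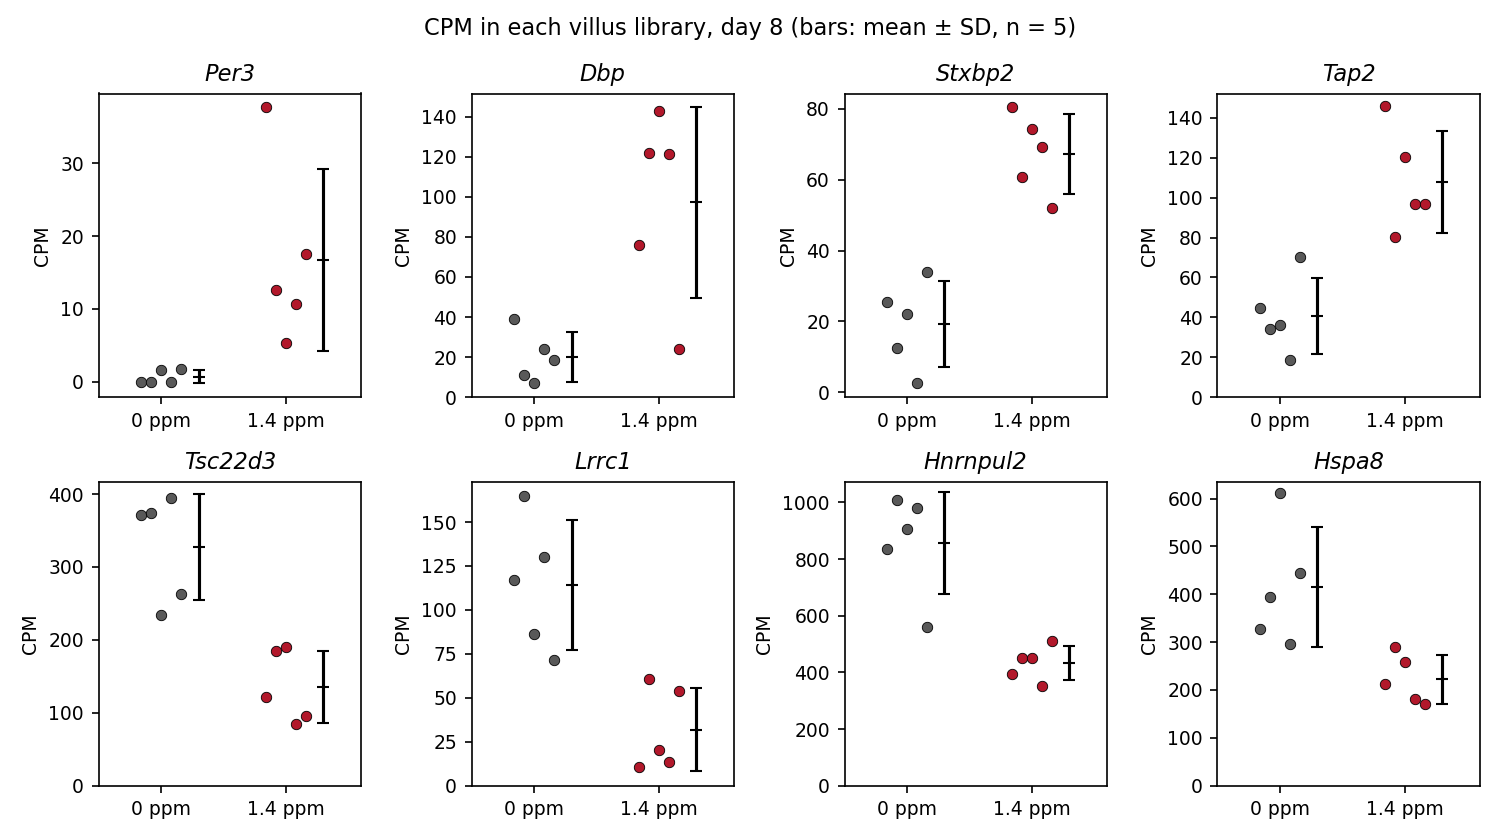
CPM of 8 genes in each villus library at day 8, with controls in gray and 1.4 ppm in red, 1 point a mouse; bars give the mean ± SD of 5 libraries. The groups do not overlap in Per3, Stxbp2, Tap2, Tsc22d3, Lrrc1, Hnrnpul2, and Hspa8, and mouse 210 overlaps the controls in Dbp.

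Tsc22d3, which encodes the glucocorticoid-induced leucine zipper, was lower. It was at 122, 185, 190, 84.1, and 95.0 CPM in mice 206 to 210 and at 371, 374, 234, 394, and 263 CPM in mice 46 to 50. The groups did not overlap, and the log2 fold change was -1.27 ± 0.30 (SE, adjusted p = 0.0253, 0.0300 without mouse 48, and 0.127 without mouse 209). A probe with fewer counts for the same gene gave 1.10 ± 0.54 (SE, adjusted p = 0.341), so the call rests on the more counted probe. Of 11 glucocorticoid responsive genes, 0 were higher and 1 was lower, with a list median of -0.01. Sgk1, a kinase induced by glucocorticoids, had a log2 difference of -0.96 ± 0.42 (SE, adjusted p = 0.27). A less counted probe of Fkbp5, named after its values were seen, was lower (log2 fold change -1.70, adjusted p = 0.0917), while the most counted one differed by 0.02.

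Some genes of RNA processing and translation were lower. Hnrnpul2, an RNA-binding protein of the nucleus, was at 396, 452, 451, 352, and 510 CPM in mice 206 to 210 and at 834, 1010, 907, 979, and 560 CPM in mice 46 to 50. Every exposed library was below every control, and the log2 fold change was -0.99 ± 0.20 (SE, adjusted p = 0.00604, and 0.0200 without mouse 48). Sf3b1 and Sf3b3, subunits of the U2 splicing particle, were also lower, at -0.77 ± 0.23 (SE, adjusted p = 0.0874) and -3.08 ± 0.84 (SE, adjusted p = 0.0676), and neither passed without mouse 48 (adjusted p = 0.188 and 0.205). These 3 were the only called members of 66 spliceosome and splicing genes, with a list median of -0.20, and 0.02 without mouse 48. Thoc7, a subunit of the mRNA export complex THO, was at 61.6 ± 16.6 CPM (SD, n = 5) against 168 ± 29.6 CPM (SD, n = 5), without overlap (adjusted p = 0.00604).

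Paip2 binds the poly(A)-binding protein and represses translation. It was at 13, 33.6, 20.1, 15.9, and 11 CPM in mice 206 to 210 and at 101, 79.5, 60.2, 43.8, and 44.2 CPM in mice 46 to 50. The groups did not overlap, and the log2 fold change was -1.80 ± 0.33 (SE, adjusted p = 0.00243, and 0.00345 without mouse 48). Of 53 translation initiation factors, 4 were lower (Eif3j1, Eif1ax, Eif1a, and Eif2s2, log2 fold changes of -1.32, -1.02, -0.99, and -0.90) and 0 were higher, with a list median of -0.17. None of the 4 passed without mouse 48, with adjusted p from 0.129 to 0.301.

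Of 79 cytosolic ribosomal proteins, Rpl31 and Rpl18 were lower, at -0.93 ± 0.27 (SE, adjusted p = 0.0843) and -0.74 ± 0.22 (SE, adjusted p = 0.0918). Neither passed without mouse 48 (adjusted p = 0.358 and 0.484), whose Rpl18 was at 1421 CPM against 499 to 683 CPM in the other controls. The list median turned from -0.24 to 0.11 without that library. Of 75 mitochondrial ribosomal proteins, Mrps9 was lower (-1.14, adjusted p = 0.0231) and Mrpl47 higher (2.71, adjusted p = 0.0696), and neither passed without mouse 48 (adjusted p = 0.174 and 0.180). A less counted probe of Mrps17 was also called lower, and its call held in each of the 10 fits without 1 library, that of mouse 48 included. Of 39 proteasome subunits, Psmc4 and Psma6 were lower (-0.99 and -0.83, adjusted p = 0.0253 and 0.0917) and 0 were higher by the most counted probe. A less counted probe of Psmd8 was called as well, and it too held its call in each of the 10 fits.

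Lrrc1, a scaffold protein of the basolateral membrane, had an adjusted p equal to that of Per3 and Paip2. It was at 10.5, 60.7, 20.5, 13.5, and 54.1 CPM in mice 206 to 210 and at 117, 165, 86.3, 130, and 71.8 CPM in mice 46 to 50. The ranges did not meet, and the log2 fold change was -1.85 ± 0.33 (SE, adjusted p = 0.00243, and 0.00171 without mouse 48). Rnf125, a ubiquitin ligase, Znfx1, a helicase that senses viral RNA, Fat1, a large cadherin, and Atp6v1h, a subunit of the proton pump of lysosomes, were lower without overlap, with log2 fold changes of -1.56, -1.10, -0.85, and -1.09 and adjusted p of 0.00557, 0.00697, 0.0169, and 0.0169. The same held for the gene with a RIKEN clone name (-1.77), Nipal2 (-2.75), Cables2 (-1.28), and Chchd5 (-2.38). All 8 also passed without mouse 48, with adjusted p from 0.00345 to 0.0639. Atp6v1h and Cables2 each lost the call in at least 1 of the fits without another library.

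Among genes that were higher without overlap, Stxbp2, which acts in the fusion of vesicles at the apical membrane, was at 80.4, 60.7, 74.1, 69.1, and 51.9 CPM in mice 206 to 210. In mice 46 to 50 it was at 25.4, 12.4, 22.1, 2.55, and 34.1 CPM. The log2 fold change was 1.75 ± 0.37 (SE, adjusted p = 0.0115, and 0.0268 without mouse 48), and the call held in each of the 10 fits without 1 library. Ift52, of the transport complex of cilia, Timm17b, of the import machinery of the mitochondrial inner membrane, and Lsp1, an actin-binding protein of leukocytes, had log2 fold changes of 3.50, 1.64, and 2.84 (adjusted p = 0.0251, 0.0255, and 0.0337). Brix1, a ribosome assembly factor, had one of 1.80 (adjusted p = 0.0332). These 4 also passed without mouse 48, while Map2k1 (2.15), Ehbp1l1 (0.96), Adap1 (1.41), Cox8a (2.07), and Plekhf1 (1.85) did not, with adjusted p from 0.109 to 0.198. Ift52 passed in each of the 10 fits without 1 library, whereas Timm17b, Lsp1, and Brix1 each lost the call in at least 1 of them.

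Genes of the RAS and MAP kinase cascade moved in different directions, a list chosen after its values were seen. By the most counted probe 1 of 24 genes tested was higher (Map2k1) and 3 were lower, Nras and Rras2 among them, with a list median of 0.04. Nras, a small GTPase, was at 149 ± 30.9 CPM (SD, n = 5) against 286 ± 50.7 CPM (SD, n = 5), without overlap (adjusted p = 0.0169). Rras2, a related GTPase, was at 0 in every exposed library and at 12.9, 15.4, 3.51, 6.38, and 4.56 CPM in mice 46 to 50, at least 7.16-fold lower with a floor of 3 counts per library (adjusted p = 0.0181).

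Heat shock proteins were lower in part. Of 29 genes of the unfolded protein and heat shock responses, Hspa8, Hsph1, and Hspe1 were lower and 0 were higher, with a list median of -0.35, and -0.14 without mouse 48. Hspa8, the constitutive HSC70 chaperone, was at 213, 291, 258, 181, and 170 CPM in mice 206 to 210 and at 328, 394, 613, 296, and 445 CPM in mice 46 to 50. The ranges came close but did not overlap, and the log2 fold change was -0.90 ± 0.24 (SE, adjusted p = 0.0586, and 0.212 without mouse 48). Hsph1, a nucleotide exchange factor of HSP70, had a log2 fold change of -1.44 ± 0.35 (SE, adjusted p = 0.0337, and 0.172 without mouse 48), and Hspe1, the mitochondrial co-chaperonin, one of -1.69 ± 0.50 (SE, adjusted p = 0.0911, and 0.463 without mouse 48). Mouse 48 was the highest control in all 3 genes. In a wider list of 36 cytosolic chaperones and their partners, chosen after values were seen, Chordc1 and Cct3 were lower as well (-1.05 and -1.09, adjusted p without mouse 48 of 0.0835 and 0.269), and the list median was -0.49, and -0.29 without mouse 48.

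Hspe1 is shown because its promoter held the site bound by the heat shock factors. The heat shock element (alternating GAA and TTC blocks set 2 bases apart, 3 in all, on either strand) was in 0.603% of the 32851 promoters, and Hspe1 held 2 matches that overlap each other. The stretch runs from 109 to 52 bases before the start, at chr1:55088039-55088096 on the plus strand (GRCm38.p6), with the matched bases in capitals.

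Hspe1: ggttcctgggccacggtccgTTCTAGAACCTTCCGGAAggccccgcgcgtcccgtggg

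Hsph1 held a match past its start, which is not shown. Hspa8 had no entry in the promoter set, so its promoter was not searched. Nothing about heat shock factor binding was measured here.

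In the NRF2 and glutathione list, Keap1, the sensor that keeps the factor NRF2 inactive, was the only call among 36 genes by the most counted probe. It was at 112 ± 20.7 CPM (SD, n = 5) against 62.1 ± 16 CPM (SD, n = 5), without overlap, with a log2 fold change of 0.84 ± 0.25 (SE, adjusted p = 0.0895, and 0.139 without mouse 48). The median of the list was 0.11. Less counted probes of Cbr1, Nfe2l2, and Prdx1 were called higher, at 2.73, 2.82, and 0.94, whereas the most counted probes of these genes differed by 0.52, 0.09, and 0.01 and did not pass. These 3 genes were named after their values were seen.

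Different probes of a gene often disagreed in this way. Of the 393 DEGs, 213 had at least 2 tested probes, and 6 (Abcb1a, Ciapin1, Dbp, Mat2a, and Tap2 among them) had 2 or more probes called in the same direction. Of 319 other probes of called genes that did not pass, 196 (61.4%) had the direction of the called probe. Calr, a chaperone of the endoplasmic reticulum, and Xbp1, a factor of the unfolded protein response, were called by 1 probe each, at -1.18 and 1.40, and their other probes with more counts differed by -0.31 and 0.60.

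Genes of absorption did not pass, with medians above 0. Of 25 genes of lipid absorption and chylomicron assembly, 14 of sugar digestion and transport, and 16 brush border peptidases and phosphatases, 0 were called by the most counted probe, and the medians were 0.27, 0.33, and 0.40. Slc5a1, the sodium-glucose transporter, was at 3466 ± 796 CPM (SD, n = 5) against 2802 ± 866 CPM (SD, n = 5). Anpep, aminopeptidase N, had a log2 difference of 0.71 ± 0.48 (SE, adjusted p = 0.48). Without mouse 48 the 3 medians were 0.15, 0.22, and 0.30.

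Of 16 amino acid and peptide transporters, Slc7a7, a basolateral exporter of cationic amino acids, was higher. It was at 77.3, 108, 99.9, 128, and 95.5 CPM in mice 206 to 210 and at 30.2, 17.4, 28.1, 51.1, and 101 CPM in mice 46 to 50, so that mouse 50 lay within the exposed range (log2 fold change 1.13, adjusted p = 0.0849, and 0.203 without mouse 48). Abcb1a, which encodes the efflux pump P-glycoprotein, was higher by 2 probes (0.96 and 0.98, adjusted p = 0.0915 for each) and was the only call of 35 genes of xenobiotic metabolism, whose median was 0.12. Angptl4, an inhibitor of lipoprotein lipase, was lower without overlap, at 35.4 ± 20.5 CPM (SD, n = 5) against 120 ± 46.2 CPM (SD, n = 5), and was the only call of 22 genes of fatty acid oxidation and PPAR alpha targets (adjusted p = 0.0437 with and without mouse 48). Its call was lost in at least 1 of the fits without another library.

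Markers of the crypt and of Paneth cells were lower, and this moved with mouse 48. Of 15 crypt stem and progenitor markers, Axin2, Ephb2, and Prom1 were lower (-0.96, -1.91, and -1.66), 0 were higher, and the median was -0.52. Axin2 and Ephb2 are targets of Wnt signaling, and Prom1 marks progenitors. Without mouse 48 none of them passed (adjusted p = 0.368, 0.398, and 0.347), and the list median was -0.03. Against the same controls, mouse 48 included, the list median was -0.43 at 0.1 ppm, -0.85 at 5 ppm, and -0.17 at 180 ppm.

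Of 11 Paneth cell markers, 5 were lower: Mmp7, Defa22, Defa24, Defa26, and Pla2g2a. Mmp7, a protease that activates defensins, was at 59.7, 175, 32.1, 56.5, and 25.5 CPM in mice 206 to 210 and at 237, 304, 583, 45.1, and 118 CPM in mice 46 to 50. Control mouse 49 lay below 3 exposed mice, so the groups overlapped, and the log2 fold change was -1.89 ± 0.52 (SE, adjusted p = 0.0676, and 0.292 without mouse 48). The alpha-defensins Defa22, Defa24, and Defa26 had log2 fold changes of -1.82, -1.80, and -1.99, and Pla2g2a, a secreted phospholipase, one of -1.75. None of the 5 passed without mouse 48, although the list median stayed at -1.12, against -1.66 with it. The Paneth list median was as low or nearly so at other doses against the same controls, at -1.35 at 0.1 ppm, -1.66 at 5 ppm, and -1.38 at 180 ppm. It is thus not particular to 1.4 ppm. Lyz1, lysozyme of Paneth cells, did not pass (-1.39, adjusted p = 0.15), and Defa5 was at or below 20.2 CPM in every library.

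Replication and DNA repair genes had medians below 0 that also moved with that library. Of 30 replication and mitosis genes 0 were called by the most counted probe, and the median was -0.54, and -0.06 without mouse 48. A less counted probe of Ccnb1 was called. Pcna, the sliding clamp of DNA polymerase, had a log2 difference of 0.02. Of 32 DNA repair genes, 2 were lower and 0 higher, with a list median of -0.30, and -0.03 without mouse 48. Xrcc6, of the end-joining complex Ku, was one of them (-1.33, adjusted p = 0.0874), and neither passed without mouse 48 (adjusted p = 0.264 for Xrcc6). Of 26 p53 targets and damage response genes 0 passed by the most counted probe, with a median of -0.15, and 1 that was lower passed without mouse 48. A less counted probe of Rrm2b was called. Gadd45a, a stress gene of this list, had a log2 difference of -0.19.

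Some immunoglobulin genes were higher. Igha, the constant region of IgA, was at 7911, 7185, 4602, 12311, and 4055 CPM in mice 206 to 210 and at 3171, 2765, 3719, 2592, and 4834 CPM in mice 46 to 50 (log2 fold change 1.08 ± 0.32 SE, adjusted p = 0.0878, and 0.146 without mouse 48). Mouse 50 lay above 2 exposed mice, so the groups overlapped. Of 166 variable segments, a list chosen after values were seen, Ighv14-4, Igkv3-7, and Igkv4-58 were higher, and the list median was 0.23. Without mouse 207 the adjusted p of Ighv14-4 was 0.208, and mouse 206 held nearly all counts of Igkv4-58. Segments of this family are near copies of each other, so reads can be shared between their probes. The 10 plasma and B cell markers, of which Igha alone was called by the most counted probe, had a median of 0.38. They summed to 7451 to 18819 CPM at 1.4 ppm and 5928 to 10713 CPM in controls. A less counted probe of Tnfrsf17, of the same list, was called lower, with 0 counts in every exposed library and a mean of 4.82 CPM in controls.

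Tap2, a peptide transporter of antigen presentation, was the only call of 34 interferon and antigen presentation genes. It was at 146, 80.5, 120, 96.6, and 96.8 CPM in mice 206 to 210 and at 44.7, 34.2, 36.1, 18.7, and 70.3 CPM in mice 46 to 50, without overlap (log2 fold change 1.38 ± 0.37 SE, adjusted p = 0.0586, and 0.137 without mouse 48). A less counted probe was higher as well (2.22, adjusted p = 0.0985). The list median was 0.08.

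By the most counted probe of each gene, other lists had few or no calls. Cox8a and Cox7a1, subunits of cytochrome c oxidase, were higher (2.07 and 2.13) and 0 lower of 79 oxidative phosphorylation genes, whose median was 0.10. Kdm5b, a histone demethylase, was higher (1.46) and Smarcd2, of a chromatin remodeling complex, lower (-0.92) of 63 chromatin genes, with a median of -0.35. Of 29 Wnt pathway genes, chosen after values were seen, Apc and Ryk were lower (-1.56 and -0.99) beside Axin2 and Ephb2, with a median of -0.07. Of 32 vesicle coat genes, also chosen so, Arcn1 was lower (-0.83), with a median of -0.02. Less counted probes of Copa, Kdelr2, Sar1a, Sar1b, and Sec22c in this list were called as well. The same held for Atp5e, Kdm1a, and Gsk3b of the oxidative phosphorylation, chromatin, and Wnt lists. By any probe, 2.07% of all genes tested were called.

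No gene passed by its most counted probe in the lists of cholesterol synthesis (24 genes, median 0.17), iron and metal handling (17 genes, -0.07), immediate early genes (22 genes, 0.42), inducible epithelial defence (23 genes, -0.09), hypoxia and glycolysis (25 genes, -0.06), or epithelial junctions (26 genes, 0.03). The same held for markers of goblet, enteroendocrine, tuft, stromal, T, myeloid, red, and neural cells, whose medians ran from -0.58 in stroma to 0.25 in goblet cells. Fth1, the heavy chain of ferritin, had a log2 difference of -0.84 (adjusted p = 0.183), Duox2, a peroxide-producing oxidase, was at 0 in 4 exposed and 3 control libraries, and Klf4, a factor of differentiated cells, differed by 0.13. Muc6, a mucin of Brunner glands, was called lower, but it was at 0 in every library except that of control mouse 46 (161 CPM), and the summed Brunner gland markers of that mouse were 196, against 0 to 9.98 in the rest. It was the only call of 4 tested Brunner gland markers, whose median was -1.44. Without mouse 46 its counts were 0 throughout.

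The next question was whether 1.4 ppm differed from the neighboring doses. In the direct contrast with 0.1 ppm, only Bnip3l was called (lower, adjusted p = 0.0587), which is 0.00526% of genes, and 1772 probes had an unadjusted p below 0.05. In that with 5 ppm 0 genes were called (0%), and the unadjusted p was below 0.05 in 2230 probes. DESeq2 called 92 and 437 genes in these contrasts. The called probes that were higher had median log2 differences of 0.59 from 0.1 ppm and 0.62 from 5 ppm, and those that were lower -0.75 and -0.50, and these probes were chosen on the 1.4 ppm libraries. Against the same controls, 0.1 ppm gave 0 DEGs (0%) and 5 ppm gave 94 (0.494%). The higher concentrations of 20, 60, and 180 ppm gave 654 (3.44%), 1581 (8.31%), and 1389 (7.3%). These contrasts share the control libraries, and their counts are given side by side.

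Single genes differed in their course over dose. Tsc22d3 was at 327 ± 73.3 CPM in controls (SD, n = 5), 210 ± 79.6 at 0.1 ppm (n = 5), 135 ± 49.8 at 1.4 ppm (n = 5), 98.3 ± 30.9 at 5 ppm (n = 4), 60.5 ± 10.9 at 20 ppm (n = 4), 47.7 ± 14.2 at 60 ppm (n = 5), and 55.8 ± 25.2 at 180 ppm (n = 4). It was lower than in controls at every dose from 1.4 ppm up, with adjusted p from 0.0253 at 1.4 ppm to 1.98e-10 at 60 ppm. The log2 difference between 1.4 and 5 ppm was 0.46 (adjusted p = 0.692).

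Hnrnpul2 had its lowest mean at 1.4 ppm, 432 ± 60.2 CPM (SD, n = 5), with 704 ± 222 CPM at 0.1 ppm (n = 5), 685 ± 134 CPM at 5 ppm (n = 4), and 959 ± 256 CPM at 180 ppm (n = 4), against 858 ± 180 CPM in controls. Dbp was at 81.2 ± 72.1 CPM at 0.1 ppm (n = 5) and 66.2 ± 66.4 CPM at 5 ppm (n = 4), both with ranges that overlap those of the 97.2 ± 47.5 CPM at 1.4 ppm, and at 23.5 ± 13.8 CPM at 60 ppm (n = 5). Per3 was at 10.5 ± 7.92 CPM at 0.1 ppm and 6.81 ± 2.35 CPM at 5 ppm, and its difference from controls also passed at 180 ppm (log2 fold change 3.15, adjusted p = 0.0382). None of these 3 genes differed between 1.4 ppm and either neighbor by the test (adjusted p from 0.32 to 0.944).

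**Figure D5:**
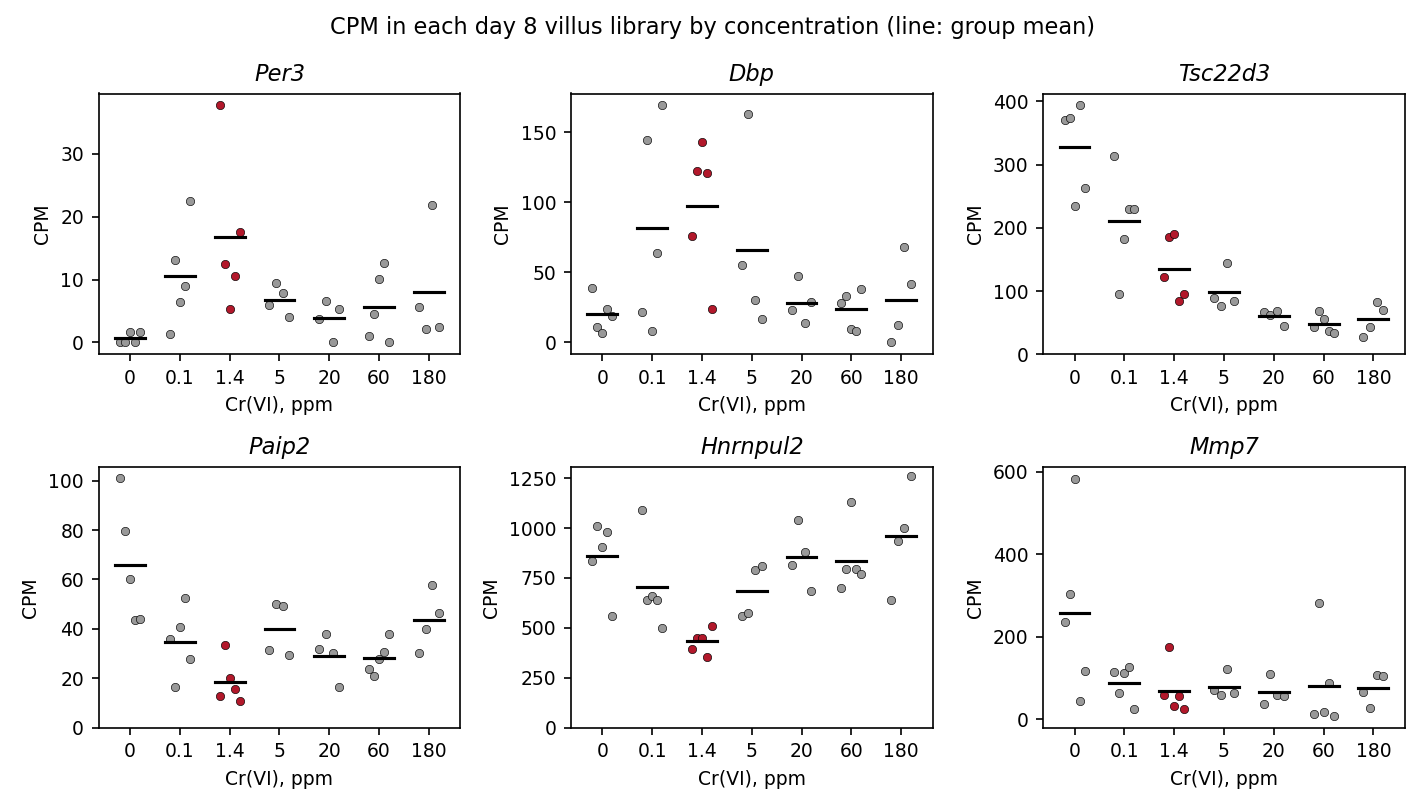
CPM of 6 genes in each villus library at day 8 over the 7 concentrations of Cr(VI) in ppm; points are libraries, lines are group means, and 1.4 ppm is red. Tsc22d3 means go from 327 in controls to 47.7 at 60 ppm, while Paip2 and Hnrnpul2 have their lowest means at 1.4 ppm.

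The crypts of the same mice gave 1 DEG at 1.4 ppm (0.00526%), and the villus effect minus the crypt effect was called in 0 genes (0%, smallest adjusted p = 0.262) by the edgeR fit that treats the 2 libraries of a mouse as independent. The unadjusted p of that difference was below 0.05 in 1818 probes, and DESeq2 called 23 genes. With mouse as a replicate block, chosen after seeing the data, 20 genes were called (0.105%), 7 with a higher and 13 with a lower effect in the villus than in the crypt. Leaving out mouse 48, which had the highest Paneth markers, left 13 genes (0.0686%), and the 4 groups alone gave 1 gene, Ighv1-47 (0.00805%). Paip2 differed by -1.92 ± 0.46 on the log2 scale (SE, adjusted p = 0.0418, 0.0935 without mouse 48, and 0.471 with the 4 groups alone). The alpha-defensin Defa24 differed by -1.58 ± 0.28 (adjusted p = 0.000113, 0.0935 without mouse 48, and 0.561 with the 4 groups alone). Mmp7 differed by -1.42 ± 0.33 (adjusted p = 0.038), and by -0.999 ± 0.35 without mouse 48 (adjusted p = 0.814). These 3 genes are examples from 8 of the 20 whose probes were also called in the villus. The others were Defa22, Defa26, Dnase1l3, Aldh3b1, and the gene with a RIKEN clone name. Defa22, Defa23, Defa24, Defa26, Defa32, Lyz1, and Mmp7 were among the 20, each with a lower effect in the villus. Of the called villus probes, 105 of 137 (76.6%) that were higher and 210 of 264 (79.5%) that were lower had the same direction in the crypt, where 45.8% of all probes were higher and 50% lower. The medians there were 0.29 and -0.26. Crypt and villus came from the same mice, so this is not a second set of animals. Per3 was at 8.65 ± 2.66 CPM in exposed crypts (SD, n = 5) and 2.93 ± 2.93 CPM in control crypts (SD, n = 5), and Dbp at 63.2 ± 31.9 and 23.6 ± 11.4 CPM. Paip2 had a log2 difference of 0.15 in the crypt.

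At day 91, in other mice, the called probes that were higher at day 8 had a median of 0. The villus of mice given 1.4 ppm for 90 days had 8 DEGs (0.0421%), among them Med1, a subunit of Mediator, named after its values were seen. Its log2 fold change was -1.52 at day 8 (adjusted p = 0.0353) and 1.98 at day 91 (adjusted p = 0.0745). Of the called day 8 probes that were higher, 68 of 137 (49.6%) were higher at day 91, where 47.5% of all probes were. Of those that were lower, 83 of 264 (31.4%) were lower at day 91, against 39% of all probes, and their median was 0.26. The difference between the effects at the 2 days was called in 376 genes (1.98%), 307 of them higher at day 91 and 69 lower, and 129 of their probes were also called at day 8. The day 8 libraries enter both sides of this count. Over all probes the median log2 difference between the 2 days was 0.18 with TMM. It was 0 with the size factors of DESeq2 (188 genes called) and 0 without mouse 48 (270 genes called). How the 307 and 69 divide in those 2 fits is not given, so the excess of differences above 0 is not separated from the scaling or from mouse 48.

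Hnrnpul2 had the smallest adjusted p for this difference (1.83 on the log2 scale, adjusted p = 0.000131). At day 91 it was at 841 ± 125 CPM at 1.4 ppm (SD, n = 5) and 468 ± 134 CPM in controls (SD, n = 4), the reverse order of day 8. Znfx1 differed in the same way (2.03, adjusted p = 0.000137). The Dbp probe with the log2 fold change of 3.79 at day 8 was at -1.14 at day 91 (difference -4.93, adjusted p = 0.0497), and the difference for Per3 did not pass (-3.50, adjusted p = 0.406). Tsc22d3 was at 143 ± 42 CPM in controls at day 91 (SD, n = 4), and the exposed mice at day 91 were at 123 ± 48.4 CPM (SD, n = 5).

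The 2 directions also differed in where the genes are expressed in untreated mice. In the untreated libraries of day 91, which are not among the 10 compared, the probes that were lower at 1.4 ppm had a median log2 difference of 0.68 between crypt and villus, and 82.6% were higher in the crypt. Those that were higher at 1.4 ppm had a median of -0.40, and 35.0% were higher in the crypt. Over all probes the median was 0.20, and 56.1% were higher in the crypt. The called probes were chosen with mouse 48 among the controls, the library highest in crypt and Paneth markers. Without it 97 of the 401 remained called, and the split between crypt and villus was not examined for those alone. Among single genes the crypt minus villus differences of Mmp7, Hspe1, Ephb2, and Rpl18 were 1.95, 2.02, 2.51, and 1.64, while those of Lrrc1, Paip2, and Fat1 were 0.21, 0.16, and -0.02.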

How the data were processed

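TempO-Seq was run on scraped crypts and villi, and bcl2fastq 2.17.1.14 and Bowtie are named in the submitters' processing notes. The authors deposited raw counts of reads per probe (30146 probes, 21450 genes), without normalization, and the build behind the probes is not given in the sources used here. Groups came from the sample labels, and 0 columns were left unused. The reads are PCR copies, so limits from counts cover counting error only, and replicates are mice.

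Probes passing filterByExpr were fitted with edgeR 4.0.16 (limma 3.58.1, R 4.3.3) in 1 quasi-likelihood model of the 28 groups of 137 libraries, with TMM scaling. P values were two-sided and adjusted over probes in a contrast. Log2 fold changes used a prior count of 2. A gene was called if any probe had an adjusted p below 0.1, and was represented elsewhere by its most counted probe. Libraries total 1463938 to 7199801 counts in the series. On simulated counts of villus 1.4 against 0 ppm (18937 probes), 126 of 200 probes changed 4-fold were called, and 20 others. The simulated probes all had the same dispersion and, apart from the change, equal means in every group, and the changed ones were picked among well-counted probes. Real libraries vary more from probe to probe and mouse to mouse, so these counts check the fit and are not error rates of the calls. Villus and crypt libraries with the same mouse number in the labels come from 1 animal. Their deviations from the group means correlated at 0.00367 to 0.354 over 10 mice (median 0.0759, against -0.0179 for different mice), and a fit with mouse as a block was added.

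The text names the 12 higher and the 12 lower genes of lowest adjusted p that had a mean count of at least 10 and no overlap of groups, up to 4 called members of each list (or the 2 of highest level), and the study's markers. Others are said to be chosen later, and some genes are not reported here. The groups compared, genes, and lists were chosen with earlier results of these data known. Alternatives included DESeq2 1.42.0. Sequences are from RefSeq, and gene spans from GENCODE M21 (GRCm38). Python 3.11.15 with numpy 2.4.6, pandas 2.3.3, scipy 1.17.1, and matplotlib 3.10.9 was used.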

Additional observations from a re-analysis of the deposited data

Results flagged for a closer look

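Among the called probes examined singly, the effect of 1.4 ppm in the villus differed between days 91 and 8 (interaction contrast of the edgeR fit, adjusted p from 0.000131 to 0.0949) in the probes given here, out of 376 genes in all. The log2 effect at day 91 minus that at day 8 was above 0 in Apc 2.39, Arcn1 1.43, Atp6v1h 1.47, Calr 1.73, Chordc1 1.84, Eif1a 1.55, Fat1 1.33, Hnrnpul2 1.83, Hsp90aa1 2.25, Lrrc1 2.09, Med1 3.50, Mrps9 1.47, Nipal2 3.74, Nras 1.20, Paip2 1.80, Psma6 1.33, Psmc4 1.47, Rnf125 1.62, Rras2 7.80, Ryk 1.45, Thoc7 1.87, Znfx1 2.03. It was below 0 in Ace -2.06, Brix1 -2.30, Cbr1 -2.87, Cox8a -2.56, Dbp -4.93, Igha -1.58, Ighv14-4 -3.97, Plekhf1 -2.74, Stxbp2 -1.75, Tap2 -2.001, Timm17b -2.50. Ace and Hsp90aa1 are given by probes other than their most counted one, chosen after their values were seen. At day 8 the log2 fold change of Ace was 1.52 (adjusted p = 0.0748) and that of Hsp90aa1 was -1.50 (adjusted p = 0.0878). The genes that were lower at day 8 had differences above 0 and those that were higher had differences below 0. The day 8 values that led to the calls are part of this difference, and the untreated libraries at day 91 were 4.

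Some libraries stood apart within their group of 5, in 23 of the 202 groups of values examined by Dixon's ratio. Its rate of about 1 in 20 by chance holds for independent, normally distributed values. The values here are not independent, and some groups had counts in 1 library alone, so 23 cannot be set against that rate. Mouse 207 was the highest of the exposed libraries in summed Paneth cell markers (5537 CPM), Defa22 (2074 CPM), Defa24 (2071 CPM), Defa26 (146 CPM), Mmp7 (175 CPM), and Pla2g2a (229 CPM), and also in Ighv14-4 (834 CPM) and Ryk (89.0 CPM). Mouse 206 was the highest in Igkv4-58 (39.6 CPM) and the only exposed mouse with counts of Sf3b3 (5.56 CPM). Mouse 210 was the only exposed mouse with Brunner gland markers (6.60 CPM summed). Among controls, mouse 48 was the highest in crypt markers (1202 CPM), stromal markers (3274 CPM), Eif1ax (455 CPM), Hspe1 (88.8 CPM), and Rpl18 (1421 CPM), and the lowest in T cell markers (1691 CPM) and Plekhf1 (1.08 CPM). Mouse 46 was the highest in Brunner gland markers (196 CPM) and Muc6 (161 CPM), and the lowest in Brix1 (0 CPM). Mouse 47 alone had counts of Igkv4-58 (4.02 CPM), and mouse 50 alone of Mrpl47 (8.64 CPM). What set these libraries apart was not tested.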

How the results depend on the processing

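The 393 DEGs (132 higher, 262 lower) became 81 (19 and 62) at an adjusted p below 0.05, 35 (8 and 27) with crypt and Paneth markers as a covariate, 854 (329 and 534) with a mean count of at least 10, 219 genes (39 higher) with a dispersion for each probe, 1014 (330 and 693) with thinned counts, 7 (4 and 3) with the villus libraries of day 8 alone, 25 (9 and 16) with the libraries of the 2 groups alone, and 1059 (446 and 624) with DESeq2. Fits chosen after seeing the data gave 58 (17 and 41) with all villus libraries and 74 (18 and 56) without mice 48 and 49. The genes called higher were 208 with the log10 total count as a covariate, 237 with DESeq2 size factors, and 86 with no filter beyond 1 count. Without 1 library at a time there were 58 to 1087 genes, 22 to 514 higher and 36 to 582 lower. Against 0.1 ppm the 1 gene became 0 at an adjusted p below 0.05, with the pancreatic covariate, DESeq2 size factors, no filter, summed probes, and the 3 smaller fits, and 4 with the crypt and Paneth covariate, 5 with a mean count of at least 10, 9 with a dispersion for each probe, 7 with thinned counts, and 92 with DESeq2 (0 to 4 without 1 library). Against 5 ppm the 0 genes became 2 with the total count, the crypt and Paneth covariate, or DESeq2 size factors, 6 with a mean count of at least 10, 8 with a dispersion for each probe, 1 with summed probes, 173 with thinned counts, and 437 with DESeq2 (0 to 5 without 1 library). For the villus effect minus the crypt effect, 5, 4, and 23 genes were called with a dispersion for each probe, thinned counts, and DESeq2 (0 to 3 without 1 library). For the day 91 effect minus the day 8 effect, the 376 genes became 106 at an adjusted p below 0.05, 250 with the total count, 188 with DESeq2 size factors, 595 with a mean count of at least 10, 1154 with a dispersion for each probe, 924 with thinned counts, 8 with the 4 groups alone, 49 with all villus libraries, 205 without mice 48 and 49, and 897 with DESeq2 (118 to 635 without 1 library). The causes were not tested.

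With the crypt and Paneth covariate, which sums the same genes, the log2 fold change of Defa22 was 0.18, of Defa26 0.044, and of Pla2g2a 0.28, each turned from below 0. Without 1 library at a time that of Igkv4-58 ran from -0.060 (without mouse 206) to 8.19 (without mouse 47). Over all alternatives of the named genes, 3069 values kept their direction and side of the threshold, 715 lost their call, and 32 gained one. These values come from 162 named probes, of which 85 were called. Only the called probes could lose a call, so the kept values are not a measure of how stable the calls were. With mouse as a replicate block, a paired analysis chosen after seeing the data, the 0 genes for the villus effect minus the crypt effect became 20 with all libraries, 13 without those of mouse 48, and 1 with the 4 groups alone. In the other comparisons the groups hold different mice, and no block was fitted. Depth of 1856080 to 4054136 counts limits low probes most.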
